A study of Mus musculus with 4 samples.

Results

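The solute carriers are the Slc genes, a large set of membrane proteins that move amino acids, sugars, ions, metals, vitamins and metabolites across the plasma membrane and the membranes of organelles. They were taken here as every probe set with a single gene symbol of the form Slc, family number, a and member number, which gave 130 of 13057 probe sets: 100 of 6523 on the first array type and 30 of 6534 on a second type marked MB in the sample titles. The 130 probe sets stand for 102 of the 6137 genes that have a probe set with 1 symbol, and 9 of the 102 lie on both array types. For 2 of these genes the symbol matches by its spelling only: Slc9a3r1 encodes a scaffold protein that binds carriers and Slc4a1ap a protein named for binding the anion exchanger Slc4a1. They were kept in the counts and in no class. The rule reads gene symbols and no intensities.

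The cells were NIH3T3, an immortalised mouse fibroblast line, stably carrying wild-type PKR behind a promoter that tetracycline represses. In the control group the transgene was under repression by 1 µg/ml tetracycline, in medium with 5% fetal calf serum, and in the other group tetracycline had been withdrawn for 5 h, with no serum content given. Each condition has 1 array of each type, 4 arrays in all. The labels name a stable line and not how many clones it came from, nor whether the arrays of a condition share their RNA. The array types carry different probe sets, so their arrays are not replicates, no difference has a replicate check, no p-value was computed, and the number of arrays limits the precision.

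The kinase PKR (gene Eif2ak2) senses double-stranded RNA, and its main substrate is eIF2 alpha, a factor needed to start translation. That phosphorylation slows most protein synthesis and favours translation of the transcription factor ATF4, whose known targets include carriers of neutral and cationic amino acids. Amino acid carriers work in linked groups: some exchange one amino acid for another, some import amino acids with sodium, and the single-pass protein 4F2hc, encoded by Slc3a2, brings several Slc7 exchangers to the cell surface. The comparison asks which carrier transcripts differ in abundance when tetracycline is withdrawn from these cells. In such bulk RNA, fewer cells expressing a gene and less RNA per cell cannot be told apart.

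Intensities are the deposited linear values. The main floor was set at percentile 25 of all values of an array type, 130 for the first and 80.0 for MB, and a probe set above it on both arrays counts as measured. The control floor is stricter. It lies at percentile 95 of 39 control probe sets for bacterial and yeast sequences (281.5 and 340.4), of which between 7 and 17 exceeded the main floor on an array. Changes are log2 of withdrawn over tetracycline intensity. Beside some of them stands a spread, a robust SD over the 200 probe sets of most similar intensity, which mixes noise with true differences and cannot replace replicates. The only Eif2ak2 probe set read 643.3 with tetracycline and 663.6 after withdrawal. Since the transgene's species is not in the labels, this value is no check of them. Fibroblast markers such as Thy1 (18329.2 and 16297.1) and Col1a2 were bright, and all 12 fibroblast marker probe sets of the MB type exceeded the control floor on both arrays. On the first type 5 of 6 did. Col3a1 read 26.9 and 18.4 there but 1184.3 and 1032.8 on the MB type. Of the marker probe sets of 8 other cell types on the first array type and 7 on the MB type, 9 of 29 and 9 of 20 exceeded the control floor on both arrays. Their summed intensity was 6901.1 with tetracycline and 6256.4 after withdrawal on the first type, and 19011.6 and 18693.3 on the MB type.

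Of the 100 carrier probe sets on the first array type, 66 were measured on both arrays, 17 on 1 array and 17 on neither. Of the 30 on the MB type, 19 were measured on both, 9 on 1 and 2 on neither. Over all probe sets, 4402 of 6523 on the first type and 4360 of 6534 on the MB type were measured on both. After withdrawal 4 of the 66 on the first type were higher by at least 2-fold, against 4.36% of all 4402 measured probe sets, and 1 was at least 2-fold lower, against 4.02%. Of the 19 on the MB type, 2 were higher by 2-fold, against 8.46% of all 4360, and 1 was lower, against 6.65%. Above the control floor on both arrays, 1 of 54 was higher and 1 lower on the first type (background 1.88% and 1.29%), and 1 of 14 was higher and none lower on the MB type (background 1.97% and 0.767%). These shares lie near the background, as far as such small counts can show. To any extent, 41 of 66 measured carrier probe sets were higher on the first type, against 48.9% of all probe sets, and 13 of 19 on the MB type, against 52.5%. Above the control floor these were 33 of 54 (background 48.8%) and 10 of 14 (background 51.1%). The median changes at the main floor were 0.11 and 0.12, beside -0.012 and 0.025 for all measured probe sets.

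**Figure D1:**
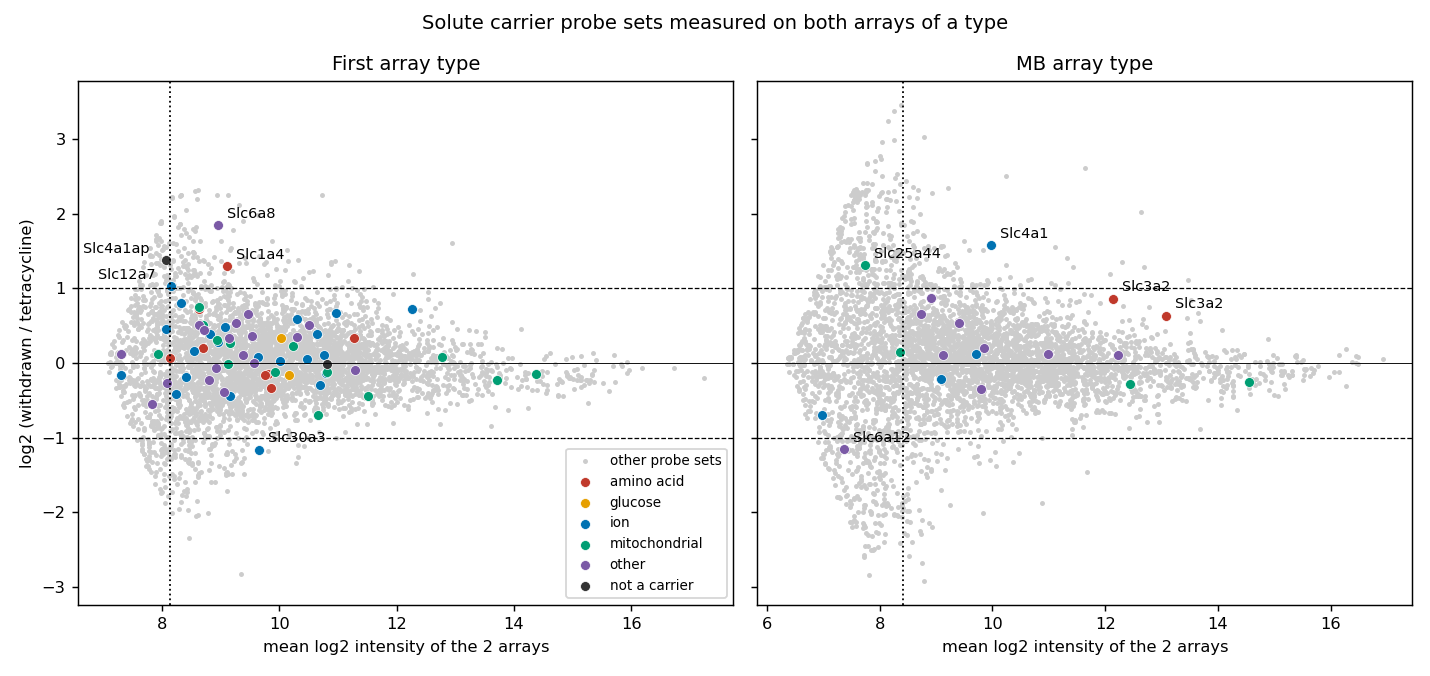
Log2 change after withdrawal (vertical axis) against mean log2 intensity of the 2 arrays (horizontal axis) for probe sets measured on both arrays, with the first array type on the left and the MB type on the right. Coloured points are solute carriers by class and grey points all other probe sets, dashed lines mark 2-fold, and the dotted line is the control floor. Most carriers lie inside the 2-fold lines. Outside them are Slc1a4, Slc6a8, Slc12a7, Slc4a1ap and Slc30a3 on the left, and Slc4a1 and a probe set each of Slc25a44 and Slc6a12 on the right. Both Slc3a2 points lie inside them at high intensity, at 0.63 and 0.86.

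The amino acid carriers (families Slc1, Slc3, Slc7 and Slc38) included 2 genes whose difference exceeded 2 times the spread at their level, Slc1a4 and Slc3a2. Slc1a4, which encodes the neutral amino acid exchanger ASCT1 that carries alanine, serine and cysteine, read 353.3 with tetracycline and 868.1 after withdrawal, 2.46-fold higher (log2 change 1.30, spread 0.59). It was the only carrier on the first type that was past 2-fold upwards with both values above the control floor. Slc3a2 was read by 2 probe sets on the MB type. One read 3328.2 and then 6044.4 (1.82-fold, log2 change 0.86), the other 6973.9 and then 10817.1 (1.55-fold, 0.63), each with a spread of 0.28. Neither reached 2-fold, but both changes exceeded 2 times the spread at their level. Both probe sets have the name ending for probe sets shared by related sequences and lie on the same pair of arrays. Their agreement is therefore not independent. Slc7a1, the cationic amino acid carrier CAT-1 for arginine and lysine, read 307.9 and 506.1, 1.64-fold higher (0.72, spread 0.66).

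Smaller differences were read for the other measured members. Slc1a5, the glutamine and neutral amino acid exchanger ASCT2, read 2213.3 and 2786.7 (0.33, spread 0.34). Slc38a2, the sodium-coupled neutral amino acid carrier SNAT2, read 388.3 and 447.6 (0.21, spread 0.57). For both the change was no larger than the spread at its level. Slc7a2, a second cationic amino acid carrier, read 275.8 and 289.5 (0.070) and exceeded the control floor only after withdrawal. The 3 lower ones were Slc7a6, a 4F2hc-linked exchanger of cationic and neutral amino acids, with 1048.8 and 830.4 (-0.34), the glutamine carrier Slc38a5 with 910.7 and 814.5 (-0.16), and Slc38a10 with 939.7 and 845.3 (-0.15). Each of these lay within the spread at its level (0.47, 0.40 and 0.43).

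The other amino acid carriers gave no usable change. Probe sets of the glutamate carriers Slc1a1 and Slc1a6, of the cationic carrier Slc7a3, of the neutral amino acid exchanger Slc7a8 and a second probe set of Slc7a6 stayed below the main floor on both arrays of the first type, at 13.3 to 120. Slc1a2, a glutamate carrier best known from astrocytes, read 169.9 with tetracycline and 37.4 after withdrawal, at least 1.31-fold lower against the main floor and below the control floor on both arrays. The MB probe set of Slc1a1 read 115.8 and 72.1, at least 1.45-fold lower by the same bound. In all, 9 of the 14 amino acid carrier genes were measured on both arrays of a type, and 6 of the 9 were higher, where 48.9% of all measured probe sets of the first type and 52.5% of those of the MB type were.

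**Figure D2:**
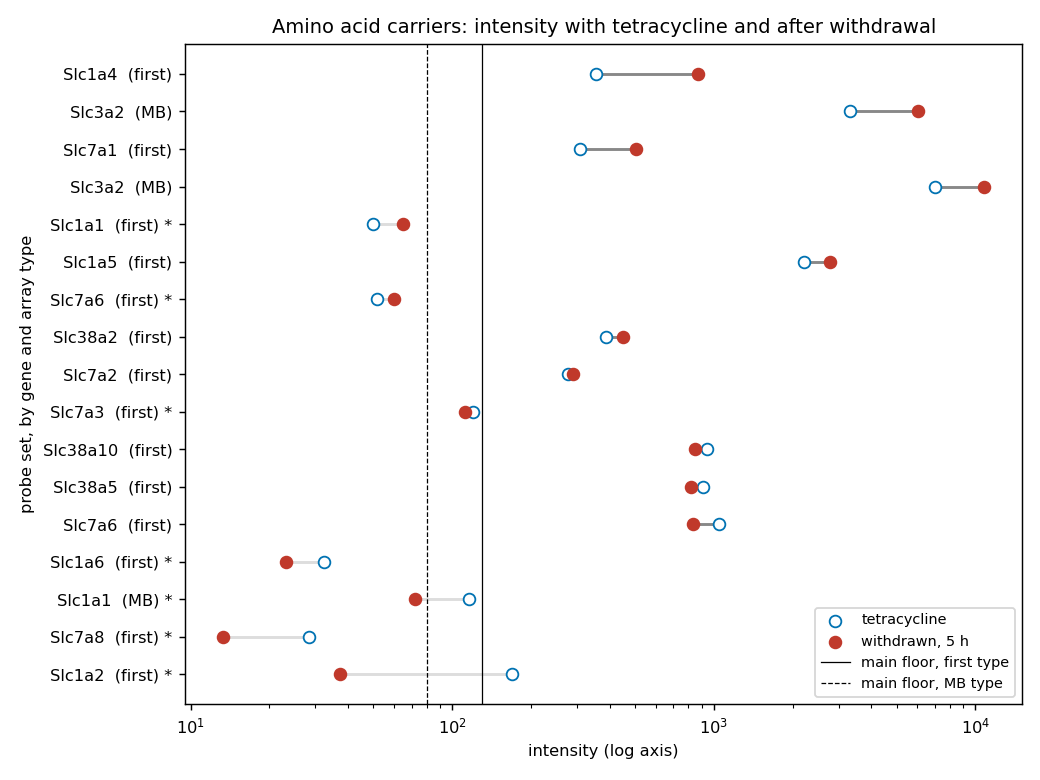
Intensity on a log axis for each amino acid carrier probe set, open circles with tetracycline and filled circles 5 h after withdrawal, ordered by log2 change, with the array type in parentheses and a star where the main floor was not exceeded on both arrays. Slc1a4 moved from 353.3 to 868.1 and the 2 Slc3a2 probe sets from 3328.2 to 6044.4 and from 6973.9 to 10817.1, while Slc38a10, Slc38a5 and the measured Slc7a6 probe set read lower after withdrawal.

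A list of 9 carriers known as ATF4 targets was set against the data. It was written with earlier results of these data known and is therefore no independent evidence. The arrays held 7 of the 9 under a single symbol, and 6 of these were measured: Slc1a4, Slc3a2, Slc7a1, Slc1a5, Slc38a2 and the glycine carrier Slc6a9 (4617.4 and 4989.0, 0.11). All 6 were higher on every measured probe set, by a median of 0.52 over the 4 probe sets of the first type and 0.63 over the 3 of the MB type. Of all measured probe sets 48.9% and 52.5% were higher to any extent. Only Slc1a4 was past 2-fold. The seventh, Slc7a3, was below the floor, and Slc7a5 and Slc7a11 were not analysed here. Of the 4 measured amino acid carrier genes outside that list, 1 was higher (Slc7a2) and 3 were lower.

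The RefSeq promoter windows of GRCm38.p6, from 250 bases before to 50 after each annotated start, were searched for the core of the C/EBP-ATF response element, the site class that ATF4 dimers bind, written as TGATGNAAN with N for any base and counted on both strands. Slc1a4 is shown because it had the largest change among the measured amino acid carriers, and Slc3a2 because its 2 probe sets, on the same arrays, both read higher. The Slc1a4 window (chr11:20332664-20332963, minus strand) and the Slc3a2 window (chr19:8713848-8714147, minus strand) read as follows, 5′ to 3′ on the strand of the gene, with capitals for the match.
Slc1a4: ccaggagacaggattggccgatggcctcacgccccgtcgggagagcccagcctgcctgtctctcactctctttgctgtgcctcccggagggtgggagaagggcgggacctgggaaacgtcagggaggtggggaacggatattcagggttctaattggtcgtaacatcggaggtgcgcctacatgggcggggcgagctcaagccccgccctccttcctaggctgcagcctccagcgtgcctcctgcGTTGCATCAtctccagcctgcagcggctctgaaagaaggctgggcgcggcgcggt
Slc3a2: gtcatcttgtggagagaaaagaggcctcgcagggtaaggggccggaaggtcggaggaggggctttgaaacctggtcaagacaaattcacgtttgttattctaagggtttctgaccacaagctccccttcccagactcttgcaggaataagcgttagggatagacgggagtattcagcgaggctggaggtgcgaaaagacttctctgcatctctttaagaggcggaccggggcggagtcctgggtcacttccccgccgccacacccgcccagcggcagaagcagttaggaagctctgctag
The Slc1a4 window held 1 match, on the strand opposite to the gene and beginning 5 bases before the annotated start. The Slc3a2 window held none, and neither did those of the other 9 amino acid carrier genes with a window, or that of Slc6a9. Of all genes with a window 4.50% had a match in at least 1, and so did 4 of the 84 carrier genes (4.76%): Slc1a4, Slc17a1, Slc23a3 and Slc50a1. Counted by window the shares were 3.95% of all and 3.48% of the 115 carrier windows, so carriers lay near the background by either count. A match is a description of letters and not a shown binding site, and known elements of this kind also lie outside such windows.

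Glucose carriers (the Slc2 family) were represented by 5 genes on 8 probe sets, and 2 of the genes were measured on both arrays of a type. Slc2a1, the basal glucose carrier GLUT1 of fibroblasts, read 1216.1 with tetracycline and 1092.6 after withdrawal (-0.15). Slc2a8, the intracellular hexose carrier GLUT8, read 931.5 and 1169.7 (0.33). One Slc2a3 probe set, for GLUT3, read 170.6 and 40.9, and the other was below the floor on both arrays (80.7 and 48.8). The probe sets of Slc2a4, the insulin-regulated GLUT4 of muscle and fat, disagreed on the MB type, with 183.1 and 17.5 on one and 17.6 and 83.8 on the other, all under the control floor. Slc2a2, the GLUT2 of liver and pancreatic beta cells, read 42.1 and 11.9 on its first-type probe set and 30.9 and 152.8 on its MB one. The data therefore give a change for GLUT1 and GLUT8 only, and each lay within the spread at its level (0.41 and 0.42).

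Among carriers of inorganic ions, 1 probe set was past 2-fold upwards with both values above the control floor. Slc4a1, the chloride-bicarbonate exchanger known as band 3 of red cells, read 578.3 and 1730.2 on the MB type, 2.99-fold higher (1.58, spread 0.41), whereas its probe set on the first type read 1836.2 and 1503.8 (-0.29, spread 0.39). Both probe sets were above the control floor on both of their arrays, and they differ in direction. Red cell markers beside it went both ways: of 5 probe sets on each type, 2 of the first type and 3 of the MB type exceeded the control floor on both arrays, and their summed intensity went from 1186.5 to 934.0 and from 3853.9 to 3595.1. Of the 2 Hba-a1 probe sets of the MB type one read 1998.5 and 1798.7, the other 236.6 and 567.0, and the erythropoietin receptor gene Epor was below the floor (54.8 and 46.7). Their part in the Slc4a1 reading was not tested.

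Of the related bicarbonate carriers 2 were measured, both on the first type. Slc4a2, the widely expressed anion exchanger AE2, read 1679.9 and 1803.9 (0.10), and Slc4a3 read 1397.7 and 1824.5 (0.38). Slc20a1, the sodium-phosphate carrier PiT-1, read 1034.4 and 1551.9 (0.59, spread 0.39). The potassium-chloride cotransporter Slc12a7 read 198.5 and 405.0 (1.03), 2.04-fold higher but from below the control floor and with a spread of 0.84, while its relative Slc12a4 read 1019.5 and 1039.6 (0.028). The sodium-proton exchanger Slc9a8 read 244.1 and 424.0 (0.80, spread 0.73), also from below the control floor.

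Among metal carriers 2 zinc carriers of the same family went opposite ways. Slc30a3, the ZnT3 that loads zinc into synaptic vesicles of neurons, read 1197.5 with tetracycline and 535.8 after withdrawal, 2.23-fold lower (-1.16, spread 0.41). It was the only carrier past 2-fold downwards with both values above the control floor. Of 4 neuron marker probe sets on the first type 1 exceeded the control floor on both arrays, and their sum went from 458.8 to 575.1; their part in this reading was not tested. Slc30a4, which encodes ZnT4, read 1593.3 and 2526.5, 1.59-fold higher (0.67, spread 0.34). Slc39a7, the ZIP7 carrier that releases zinc from the endoplasmic reticulum and Golgi, read 3842.6 and 6344.0, 1.65-fold higher (0.72), and at a spread of 0.27 this was more than 2 times the spread at its level. Slc30a1, which exports zinc at the plasma membrane, read 585.7 and 507.0 (-0.21), and Slc30a5, a zinc carrier of the secretory pathway, 807.5 and 875.5 (0.12) on the MB type, with -0.19 on its first-type probe set.

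The iron importer Slc11a2, DMT1, was read by 2 probe sets on the same arrays with nearly the same change. One read 455.0 and 637.8 (0.49, spread 0.61), the other 228.4 and 313.7 (0.46, spread 0.94). Each change lay within its spread, and the tetracycline value of the second was below the control floor. For the copper importer Slc31a1 the 2 probe sets disagreed in sign, with 1853.6 and 1689.6 (-0.13) and with 395.1 and 518.3 (0.39). Slc41a1, a magnesium carrier, read 665.4 and 491.5 (-0.44, spread 0.57). Slc39a3, the zinc importer ZIP3, read 30.4 and 448.2 and so has only a bound, at least 3.46-fold higher against the main floor and 1.59-fold against the control floor. Of the 14 measured metal carrier probe sets of the first type 9 were higher, as were 6 of the 8 for inorganic ions, against 48.9% of all measured probe sets of that type.

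The mitochondrial carrier class is the Slc25 family, most of whose members exchange metabolites across the inner mitochondrial membrane. It was measured on 14 of 15 probe sets of the first type and 4 of 6 of the MB type. These include the peroxisomal carrier Slc25a17, which was classed by its family number and read 1884.0 and 1727.2 (-0.13) on the first type. Slc25a5, one of the ADP/ATP carriers that export ATP to the cytosol, read slightly lower on all 3 of its probe sets: 22268.2 and 20132.2 (-0.15), 14587.4 and 12473.0 (-0.23), and on the MB type 26222.0 and 22082.7 (-0.25). Its close paralog Slc25a4 read 6846.3 and 7218.4 (0.076) on the first type and 6150.0 and 5068.0 (-0.28) on the MB type. These 5 probe sets and both of Slc3a2 carry the name ending that Affymetrix gave to probe sets shared by related sequences, so signal of close paralogs cannot be separated there. On the first type the dicarboxylate carrier Slc25a10 read 2060.6 and 1267.6, 1.63-fold lower (-0.70, spread 0.34), and the citrate carrier Slc25a1 3423.4 and 2514.1 (-0.45, spread 0.31). The carnitine-acylcarnitine carrier Slc25a20 read 303.9 and 512.4 (0.75, spread 0.67), with 0.12 on a second probe set. Slc25a44, which carries branched-chain amino acids into mitochondria, was past 2-fold on one probe set of the MB type (135.8 and 336.6, 1.31) and not on the other (313.2 and 347.9, 0.15). The former change was smaller than its spread of 1.37, and neither probe set exceeded the control floor on both arrays.

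Of the remaining carriers, Slc6a8, which imports creatine, had the largest change among all measured carriers, from 261.9 to 937.8, 3.58-fold higher (1.84, spread 0.58). Its tetracycline value lay just under the control floor. The betaine carrier Slc6a12 on the MB type read 356.6 and 650.2 (0.87) on one probe set and 246.6 and 111.1 (-1.15) on the other. The latter change was smaller than its spread of 1.31, and neither of its values exceeded the control floor. Slc23a2, a vitamin C carrier, read 562.0 and 883.1 (0.65, spread 0.47), and Slc5a6, which imports biotin and pantothenate, 513.5 and 741.2 (0.53, spread 0.50). The choline carrier-like gene Slc44a2 read 566.4 and 819.3 (0.53, spread 0.55). Slc22a23 and Slc22a17 of the organic ion family read 1221.1 and 1734.5 (0.51) and 331.0 and 472.5 (0.51).

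Further carriers of this class had changes inside 1.5-fold. Slc16a1, the lactate carrier MCT1, read 497.3 and 476.1 (-0.063) on the first type and 1949.0 and 2116.0 (0.12) on the MB type. The taurine carrier Slc6a6 gave -0.087, 0.0046 and 0.34 on its 3 probe sets. The reduced folate carrier Slc19a1 read 642.5 and 694.0 (0.11), the proton-coupled folate carrier Slc46a1 484.9 and 414.5 (-0.23), and the CMP-sialic acid carrier Slc35a1 of the Golgi 1007.8 and 791.4 (-0.35). Slc50a1, a sugar carrier, read 861.4 and 987.5 (0.20). The 2 probe sets of the organic ion carrier Slc22a18 went opposite ways, with 610.9 and 467.7 (-0.39) and with 360.1 and 490.8 (0.45). Slc4a1ap, 1 of the 2 genes in no class, was the remaining probe set past 2-fold on the first type, with 167.0 and 434.7 (1.38, spread 0.95) and its tetracycline value under the control floor. The other, Slc9a3r1, read 1808.1 and 1787.4 (-0.017).

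Carriers seen above the floor on 1 array only were split between the directions: 7 higher and 10 lower on the first type, 4 higher and 5 lower on the MB type. The same split over all probe sets was not computed, so these counts say nothing particular about carriers. The largest upward bounds on the first type were those of the vesicular GABA carrier Slc32a1 (87.1 and 520.8, at least 4.01-fold against the main floor and 1.85-fold against the control floor), Slc39a3 and the fatty acid carrier Slc27a2 (71.1 and 392.4, 3.02-fold and 1.39-fold). A second Slc32a1 probe set went the other way, from 274.9 to 61.2, and so did a second one of Slc27a2, from 148.2 to 99.9. Downward bounds were led by Slc10a6 on the first type (287.2 and 105.6, 2.21-fold against the main floor and 1.02-fold against the control floor), followed by that second Slc32a1 probe set (2.12-fold) and the bicarbonate carrier Slc4a5 (206.5 and 44.6, 1.59-fold). Downward on the MB type were the nucleoside carrier Slc29a2 (236.9 and 53.2, 2.96-fold), Slc17a1 (228.7 and 39, 2.86-fold) and the kidney sodium-chloride cotransporter Slc12a3 (183.3 and 66.7, 2.29-fold). The upward ones there were Slc2a2 (1.91-fold), the bicarbonate carrier Slc4a8 (1.42-fold) and the mitochondrial aspartate-glutamate carrier Slc25a13 (1.41-fold). No MB carrier with a bound exceeded the control floor on any array.

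Genes with several probe sets show how far readings of 1 gene can part, though some pairs lie on different array types. Of 16 carrier genes with at least 2 measured probe sets, 7 had changes of 1 sign and 9 of both signs. Both signs could come with small changes, as for Slc16a1 (-0.063 and 0.12). The same count over all genes was not made, so this is no trait particular to carriers. The median distance between the lowest and highest change of a gene was 0.39. Opposite changes more than 1 apart were found for 2 genes, Slc4a1 and Slc6a12, and only for Slc4a1 did both probe sets exceed the control floor. Slc3a2 (0.63 and 0.86), Slc11a2 and Slc25a5 were among those whose probe sets gave 1 sign. For Slc3a2 this agreement is not independent, since its probe sets share arrays and the name ending for shared sequences. The Slc11a2 probe sets, and those of Slc25a5 on the first type, share arrays as well.

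**Figure D3:**
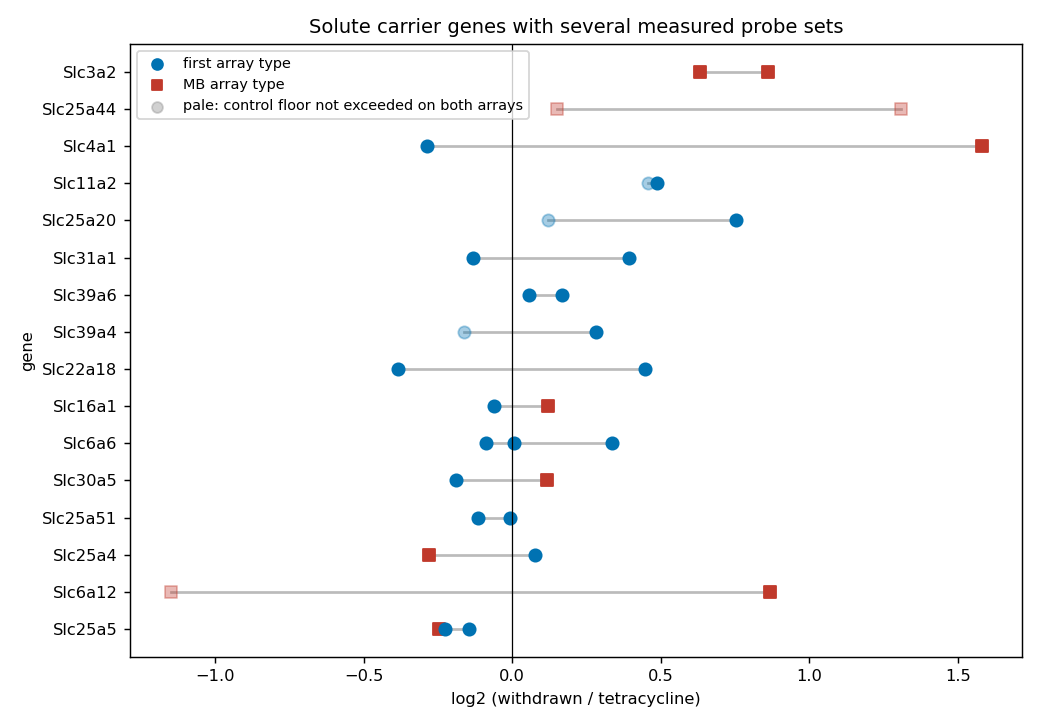
Log2 change after withdrawal (horizontal axis) of each measured probe set of the 16 carrier genes that had at least 2, circles for the first array type and squares for the MB type, with pale symbols where the control floor was not exceeded on both arrays and lines joining probe sets of a gene. Both Slc3a2 squares lie right of 0, at 0.63 and 0.86, whereas the line of Slc4a1 runs from -0.29 to 1.58 and that of Slc6a12 from -1.15 to 0.87.

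Set against one another on the first array type, the classes overlapped. The median change was 0.14 over 8 amino acid carrier probe sets (range -0.34 to 1.30), 0.13 over 22 ion and metal carriers (-1.16 to 1.03), 0.035 over 14 mitochondrial carriers (-0.70 to 0.75) and 0.23 over 18 other carriers (-0.56 to 1.84). Amino acid carriers thus differed from ion carriers by 0.0030 and from mitochondrial carriers by 0.10 on the log2 scale, far less than the range within each class. Without Slc1a4 the first difference was -0.065 and the second 0.035. The mitochondrial class was kept as the whole Slc25 family, the peroxisomal Slc25a17 included. Glucose carriers had 2 measured probe sets and were given no median. The only measured amino acid carrier of the MB type was Slc3a2, and the medians there were -0.046 over 4 ion carriers, -0.048 over 4 mitochondrial and 0.12 over 9 other carriers. The larger differences thus lay with single genes of each class and not with the class medians.

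**Figure D4:**
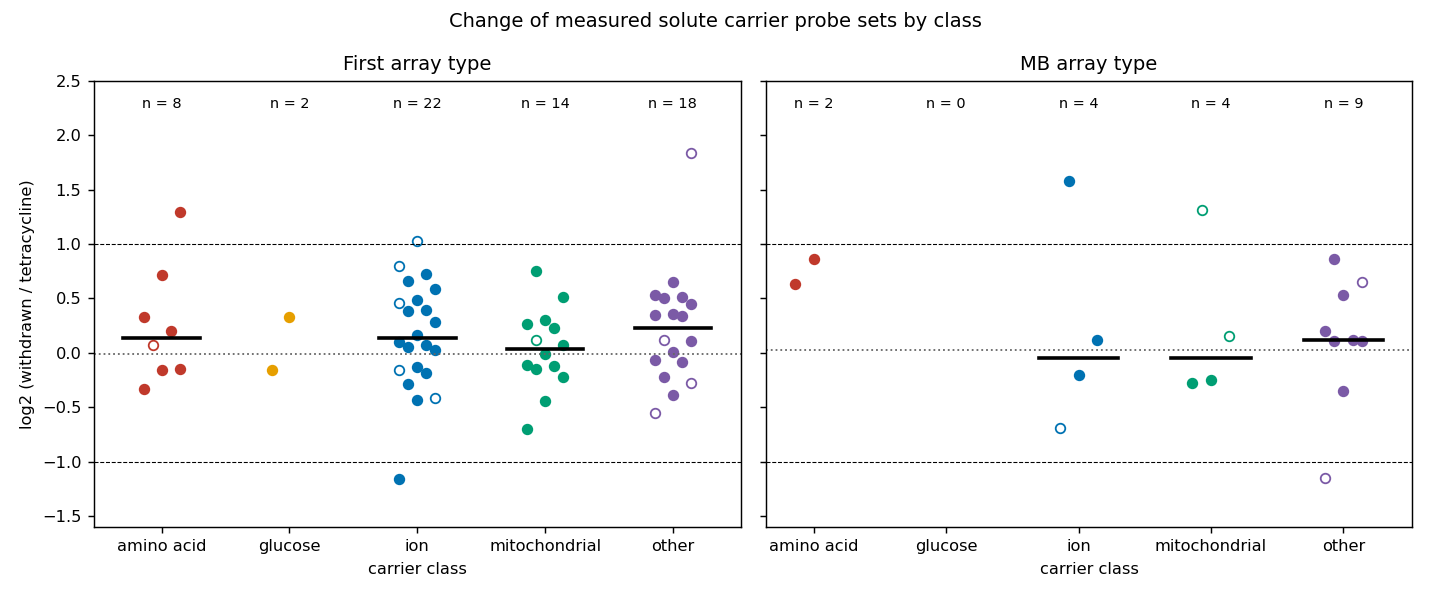
Log2 change after withdrawal (vertical axis) of each measured carrier probe set by class, first array type on the left and MB type on the right, filled where both values exceeded the control floor. Bars are class medians (3 or more probe sets), the dotted line is the median of all measured probe sets and dashed lines mark 2-fold. The bars of the amino acid, ion and mitochondrial classes on the first type lie at 0.14, 0.13 and 0.035 within widely overlapping points.

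As a second measure, changes larger than 2 times the spread at their level were counted. On the first type 3 of 66 measured carrier probe sets were higher by that measure (Slc6a8, Slc39a7 and Slc1a4), against 3.61% of all, and 2 were lower (Slc25a10 and Slc30a3), against 2.39%. Of the 19 on the MB type, 3 were higher (Slc4a1 and both Slc3a2 probe sets), against 3.78% of all, and none was lower, against 2.87%. The 3 MB probe sets stand for 2 genes.

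Transport genes outside the carrier families were read from lists of pumps, ATP-driven transporters and carrier partners. For comparison, 48.9% (first type) and 52.5% (MB type) of all measured probe sets were higher to any extent. Each list holds few measured probe sets, and no list was tested against these shares. The counts below therefore describe single probe sets and give no direction for a list. Of the ABC transporters, which use ATP to export lipids and drugs, 8 probe sets were measured on the first type: 2 were higher and 6 lower, with the drug efflux pump Abcg2 at 675.4 and 305.2 (-1.15) and the cholesterol exporter Abca1 at 330.5 and 146.5 (-1.17, below the control floor after withdrawal). All 3 measured ABC probe sets of the MB type were higher, Abcd2 past 2-fold with both values below the control floor (82.8 and 183.2), and Abcd3, a peroxisomal transporter, was lower on the first type (-0.45) and higher on the MB type (0.27). Basigin (Bsg), which carries lactate transporters such as MCT1 to the membrane, was higher on both array types, from 10347.0 to 13104.0 (0.34) and from 727.0 to 975.0 (0.42). Its first-type probe set has the name ending for shared sequences. Other carrier partners went both ways on the first type. Emb read 330.5 and 224.9 (-0.56, below the control floor after withdrawal), Gabarap 6218.0 and 4516.5 (-0.46), and Slc9a3r1 was slightly lower (-0.017). Pdzk1 read higher, with 167.6 and 190.2 (0.18), both values below the control floor. Of the sodium pump list, 1 of 2 measured probe sets of the first type was higher and 0 of 3 of the MB type, none past 2-fold. Subunits of the vacuolar proton pump were higher on 5 of 7 measured probe sets of the first type and 2 of 3 of the MB type, none past 2-fold. In the calcium and copper pump list 2 of 4 measured probe sets were higher on the first type, and Atp2c1, a Golgi calcium pump, was past 2-fold downwards (582.7 and 231.3, -1.33, below the control floor after withdrawal). The 1 measured on the MB type was lower. Among carrier-like and channel proteins of mitochondria 3 of 6 measured probe sets were higher on the first type, and all 3 on the MB type were lower, of which one of the 2 Mtch1 probe sets was past 2-fold (393.1 and 127.4). The list of carrier partners gave 2 higher of 5 (first type) and 1 higher of 2 (MB type), Bsg included, and the organic anion carrier Slco3a1 read 143.8 and 175.1.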

How the data were processed

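RNA of both conditions was measured on 4 oligonucleotide arrays with Affymetrix-style probe set names. For each array the deposited values are linear intensities, 1 for every probe set. Their software, scaling and build: not given in the sources used here. The 2% trimmed means were 999.9 and 1000.4 on the first type and 996.6 and 997.3 on the MB type, so intensities were used unscaled. Control probe sets (61 per type) were left out. Symbols came from the platform annotation. All 130 members matched RefSeq genes by Entrez identifier, and none needed a new symbol. Members were classed by family number.

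Named are every measured amino acid carrier, the largest changes above the control floor (up to 8 per direction and type), changes past 2-fold, the 3 largest bounds per direction and type, and genes whose probe sets oppose by more than 1; other members and the other transport genes were chosen after their values were seen. Members, lists and classes were chosen with earlier results of these data known. The count by 2 spreads, the removal of Slc1a4 and the medians over both array types were set after the data were examined. Code was tested on simulated arrays. Python 3.11.15, numpy 2.4.6, pandas 2.3.3 and statsmodels 0.14.6 were used. Alternatives were other floors, fold limits, scalings, an added 50 units, and 1 value per gene.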

Additional observations from a re-analysis of the deposited data

How the results depend on the processing

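No paired analysis was possible because each condition has 1 array of each type. No replicate could be left out for the same reason. Rescaled were 38 probe sets: the measured amino acid carriers, the largest changes above the control floor and those past 2-fold. All 38 kept their sign under 4 scalings (trimmed mean, quantile, median ratio, loess) and with 50 added to each intensity. Of the 8 past 2-fold, 6 stayed so under all 5. The others were Slc12a7 (lowest 0.87) and the lower Slc6a12 probe set (-0.88). The remaining named probe sets, many with small changes such as Slc2a1, Slc12a4 and Slc9a3r1, were not checked in this way. Counts past 2-fold followed the floor and limit. First type, higher (main 4): 7 at 0.5 times the floor, 2 at 2 times, 1 at the control floor, 11 at 1.5-fold and 1 at 3-fold. First type, lower (main 1): 3 at 0.5 times the floor, 2 at 1.5-fold, 2 past 2 spreads, 0 at 3-fold. MB type, higher (main 2): 4 at 0.5 times the floor, 1 at 2 times, 1 at the control floor, 1 per gene, 6 at 1.5-fold, 0 at 3-fold. MB type, lower (main 1): 3 at 0.5 times the floor, 2 at 1.5-fold, and 0 at 2 times the floor, at the control floor, with 50 added, per gene, past 2 spreads and at 3-fold. The median of other carriers on the first type (0.23) was 0.35 at 2 times the floor, 0.34 at the control floor, 0.12 with 1 value per gene by either rule, and 0.11 over both types. The mitochondrial median turned to -0.0070 at 2 times the floor and at the control floor. The amino acid minus mitochondrial difference (0.10) was 0.21 at the control floor and 0.14 at 2 times the floor. It was 0.061 with 1 value per gene by either rule, and 0.035 at 0.5 times the floor and without Slc1a4. The amino acid minus ion difference (0.0030) turned to -0.0065 at 0.5 times the floor, -0.0020 with 50 added, -0.017 with a wider amino acid class (Slc6, Slc15, Slc36 and Slc43 added) and -0.065 without Slc1a4. It was larger at the control floor (0.10), over both types (0.098) and with quantile normalization (0.060). On the MB type the ion median turned to 0.12 at 2 times the floor and at the control floor and was -0.15 with quantile normalization, and the mitochondrial median was -0.25 at 2 times the floor and with 1 value per gene by either rule. Fewer probe sets stand behind the higher floors; the cause of the other shifts was not tested. Low signal over background limits the carriers under the control floor: 46 of 100 probe sets on the first type and 16 of 30 on the MB type did not exceed it on both arrays. Those that did were 54 and 14 carrier probe sets, beside 3555 of 6523 and 2738 of 6534 over all probe sets. The limit is therefore not particular to carriers.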
